A study of Mus musculus with 20 samples.

Results

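Aldo-keto reductases are cytosolic enzymes that use NADPH or NADH to interconvert carbonyl groups and alcohols on steroids, sugars, lipid aldehydes and foreign compounds. Those of the 1C subfamily act mainly as hydroxysteroid dehydrogenases, and the liver uses them to inactivate steroid hormones and to reduce drugs. Those of the 1B subfamily, relatives of aldose reductase, reduce reactive aldehydes and retinal, and the human 1B member AKR1B10 is known for its high level in many liver cancers. Of 8 such genes chosen by name (Akr1c6, Akr1c12, Akr1c13, Akr1c14, Akr1c19, Akr1c20, Akr1b7 and Akr1b8), 7 had a probe set annotated to that gene alone, with 8 probe sets in all, out of 18193 genes and 45037 probe sets. Akr1b7 was not analysed here.

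Messenger RNA was measured on 20 Affymetrix arrays of liver tissue from male C57BL/6 mice that all carried a conditional Apc knockout allele. Apc is part of the complex through which beta-catenin is degraded, and its loss turns Wnt target genes on. The sample protocols give a single injection of 0.75 mg tamoxifen at 6 weeks of age, and from 1 week later, over 9 months, either plain chow or a diet holding 0.05% phenobarbital; the design text of the series names an initiating dose of the carcinogen DEN, and which holds was not settled. There were 5 arrays in each of 4 groups: adenomas from mice on phenobarbital (APCko_Adenoma), carcinomas from mice without it (APCko_Carcinoma), non-tumour liver with phenobarbital (PB_NT) and non-tumour liver without it (H2O_NT, called untreated below). Phenobarbital is a sedative that acts on hepatocytes through the receptor CAR and is a classical tumour promoter of rodent liver. The driver of the recombinase and the deleted part of Apc are not given in the sources used here, no liver without the allele was analysed here, and in the tumours stage and diet vary together, so these cannot be told apart. No label tells whether the 5 samples per group are from 5 mice, or whether a tumour and a liver sample share a mouse; the p-values therefore cover sample-to-sample spread, which may be technical.

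All levels are log2 expression values, on which a difference of 1 is a doubling, and levels of different probe sets are not comparable with each other. Array medians lay between 5.52 and 5.63 in every group. Of 8 genes listed as responders to phenobarbital, 7 rose in PB_NT livers over untreated livers, where 0.192% of all genes rose. Among them was Cyp2b10, the P450 gene used as the marker of CAR, by 5.62 (SE 0.73, adjusted p = 0.00048). This list and the others used here were chosen with earlier results of these data known, so their counts are no independent check. Of 9 measured hepatocyte markers, all were lower in carcinomas than in untreated liver (37.6% of all genes), with a median of -4.70. In adenomas 2 of the 9 were lower than in PB_NT livers (11.2% of all genes).

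Akr1c14, Akr1c13, Akr1c19, Akr1c12, Akr1c6 and Akr1c20 lie in this order along chromosome 13 within a cluster of related genes, while Akr1b8 and Akr1b7 lie on chromosome 6. Such paralogs are alike in sequence, so a probe set can bind transcripts of a neighbour, and values of single 1C genes are uncertain to that extent. The starts of Akr1c12 and Akr1c13, the most alike of the 7 windows compared, are printed first. They were taken from RefSeq on build GRCm38.p6, with 250 bases before the transcript start used in that table and 50 after it. Capitals mark bases that differ between them or stand against a gap. Most of each window lies before the transcript, so its likeness does not measure binding of a probe set to a neighbour's transcript. Akr1c19, the gene with the deepest fall below, and Akr1b8, the gene that rose, follow.
Akr1c12 (chr13:4279350-4279649, minus strand): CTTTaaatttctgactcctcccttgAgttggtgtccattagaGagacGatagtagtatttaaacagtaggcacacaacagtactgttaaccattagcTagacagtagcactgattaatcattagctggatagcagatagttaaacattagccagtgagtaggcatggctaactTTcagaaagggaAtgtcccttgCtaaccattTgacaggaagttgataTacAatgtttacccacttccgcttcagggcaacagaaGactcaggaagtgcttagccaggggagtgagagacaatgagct
Akr1c13 (chr13:4190937-4191236, plus strand): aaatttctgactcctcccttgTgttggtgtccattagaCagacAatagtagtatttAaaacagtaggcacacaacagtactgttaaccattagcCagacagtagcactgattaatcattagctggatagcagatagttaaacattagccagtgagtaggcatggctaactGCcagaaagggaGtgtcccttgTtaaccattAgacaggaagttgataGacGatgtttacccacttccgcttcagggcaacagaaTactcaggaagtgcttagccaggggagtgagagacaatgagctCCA
Akr1c19 (chr13:4233490-4233789, plus strand): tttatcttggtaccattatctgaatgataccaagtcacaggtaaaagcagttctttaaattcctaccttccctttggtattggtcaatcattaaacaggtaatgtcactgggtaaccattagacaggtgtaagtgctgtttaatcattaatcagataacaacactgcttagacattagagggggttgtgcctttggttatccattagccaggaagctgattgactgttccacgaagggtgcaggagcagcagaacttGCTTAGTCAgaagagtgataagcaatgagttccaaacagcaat
Akr1b8 (chr6:34353896-34354195, plus strand): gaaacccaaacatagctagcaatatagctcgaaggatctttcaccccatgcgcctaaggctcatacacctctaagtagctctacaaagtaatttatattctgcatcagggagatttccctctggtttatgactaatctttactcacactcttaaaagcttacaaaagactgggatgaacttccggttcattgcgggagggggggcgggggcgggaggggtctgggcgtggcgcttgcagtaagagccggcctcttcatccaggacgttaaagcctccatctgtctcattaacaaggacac
The windows of Akr1c12 and Akr1c13 were identical at 284 of 304 aligned positions (93.4%), with 12 substituted bases, although the genes lie on opposite strands with Akr1c19 between them. Akr1c19 shared 58.7% of aligned positions with Akr1c12 and 59.8% with Akr1c13, and all other pairs of the 7 windows in the table lay between 44.6% and 52.9%. Akr1c20 had no entry in the table used.

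Each window was searched on both strands for 6 short motifs. In Akr1c19, the capitals mark the only match to the core of the element bound by the antioxidant factor NRF2 (TGACNNNGC), at bases 8 to 16 after the start on the minus strand, a motif held by 12.5% of 27025 promoter windows. The motif TATAAA was found in Akr1c6 and Akr1b8 only (14.2% of all windows). CTTTGA, the core of the site for the TCF/LEF factors of Wnt signalling, was in none of the 7 windows (16.2% of all windows). TTGCNNAA for C/EBP factors (10.8%), CAAAGTCCA for HNF4 (0.477%) and the HNF1 consensus (0.0629%) were in none either.

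The 6 genes of the 1C subfamily were far lower in carcinomas than in untreated liver, by 17.9-fold to 87.2-fold on the deposited scale, and Akr1b8 was 3.56-fold higher. The folds of the 1C genes may be understated where carcinoma values lie at background, which could not be told without detection calls. In every one of these 7 genes the 5 carcinoma arrays did not overlap with the 5 untreated arrays. All 6 falls and the rise passed the test (limma over all 18193 genes, adjusted p under 0.05), where 37.6% of all genes passed downward and 31.4% upward in this comparison, so passing alone was common here. Non-overlap was likewise seen downward in 27.8% and upward in 25.4% of genes. The 1C falls had a median of -5.17 against -0.12 over all genes, and they ranked between 50th and 418th from the lowest log2 difference of 18193 genes.

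Akr1c19, whose product oxidises hydroxysteroids and alicyclic alcohols, read 6.84, 3.70, 6.24, 4.94 and 4.03 in carcinomas, against 11.58, 11.49, 11.66, 11.43 and 11.82 in untreated liver. Its lowest carcinoma values came close to the lowest value of the whole table, 2.67, so its fold is uncertain and may be too small. The difference was -6.45 (SE 0.46, adjusted p = 1.83e-10), the deepest of the 7 genes. Akr1c14, a 3-alpha-hydroxysteroid dehydrogenase that inactivates potent androgens, read 9.48, 3.77, 7.52, 7.10 and 5.14 in carcinomas, against 12.48, 12.66, 12.60, 12.27 and 12.85 in untreated liver. Carcinomas spread over more than 5 log2 units and untreated livers over less than 1, and the difference was -5.97 (SE 0.67, adjusted p = 1.62e-07). It read -5.26 without carcinoma array 2, -6.69 without carcinoma array 1 and -6.61 with array quality weights.

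Akr1c12, an NAD-dependent hydroxysteroid and alcohol dehydrogenase, read 6.89, 5.62, 6.21, 5.27 and 5.42 in carcinomas, against 11.10, 11.22, 11.07, 10.91 and 11.23 in untreated liver. It was the most uniform of the 1C genes among carcinomas (SD 0.67, n = 5) and fell by 5.22 (SE 0.27, adjusted p = 1.34e-12). Its values on carcinoma arrays 2, 4 and 5 did not exceed the highest carcinoma array median, 5.63. Whether the small SD and the order of these arrays reflect background could not be told without detection calls. Akr1c13 read 7.86, 5.93, 7.80, 7.88 and 6.87 in carcinomas, against 11.40, 11.46, 11.42, 11.17 and 11.70 in untreated liver. The difference was -4.16 (SE 0.32, adjusted p = 5.48e-10). The lowest carcinoma array was array 2 for Akr1c13 and array 4 for Akr1c12, where arrays 4, 5 and 2 read 5.27, 5.42 and 5.62.

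Akr1c20 is listed as an aldo-keto reductase of the same cluster and had 2 probe sets. The brighter read 8.87, 4.65, 7.03, 7.36 and 5.66 in carcinomas, against 11.91, 12.10, 11.96, 11.38 and 11.84 in untreated liver, a difference of -5.13 (SE 0.49, adjusted p = 1.53e-08). The dimmer read 4.50, 3.93, 4.05, 3.97 and 3.73 in carcinomas, against 8.22, 8.02, 7.67, 7.24 and 7.91 in untreated liver. It gave -3.78 in a fit over all probe sets (SE 0.27, adjusted p = 2.07e-10), and the mean of the pair gave -4.45. Both fell, while the dimmer one was near the floor in carcinomas and had the smaller difference.

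Akr1c6, the mouse 17-beta-hydroxysteroid dehydrogenase type 5, which reduces and oxidises sex steroids, read 12.25, 6.24, 10.84, 10.74 and 8.66 in carcinomas, against 14.04, 14.09, 13.97, 13.79 and 14.08 in untreated liver. Its SD among carcinomas, 2.34, was the largest of the 7 genes, and the difference was -4.25 (SE 0.68, adjusted p = 1.72e-05). It read -3.37 without carcinoma array 2, -4.88 without carcinoma array 1 and -4.88 with array quality weights. The fit shares 1 spread over all 4 groups, and carcinomas varied more than livers, so these SEs understate the spread of carcinomas. With only carcinomas and untreated livers fitted, all 7 genes still passed, with larger adjusted p. It was 0.0018 for Akr1c6, 0.00011 for Akr1c14 and 3.63e-08 for Akr1c12.

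Akr1b8, known as the FGF-regulated gene FR-1, whose product reduces aldehydes and retinal, read 9.69, 9.33, 7.68, 9.72 and 9.29 in carcinomas, against 7.24, 7.04, 7.52, 7.16 and 7.58 in untreated liver. Array 3 was low for its group and lay only just above the highest untreated array. The rise was 1.83 (SE 0.30, adjusted p = 2.17e-05), and 2.20 without carcinoma array 3.

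**Figure D1:**
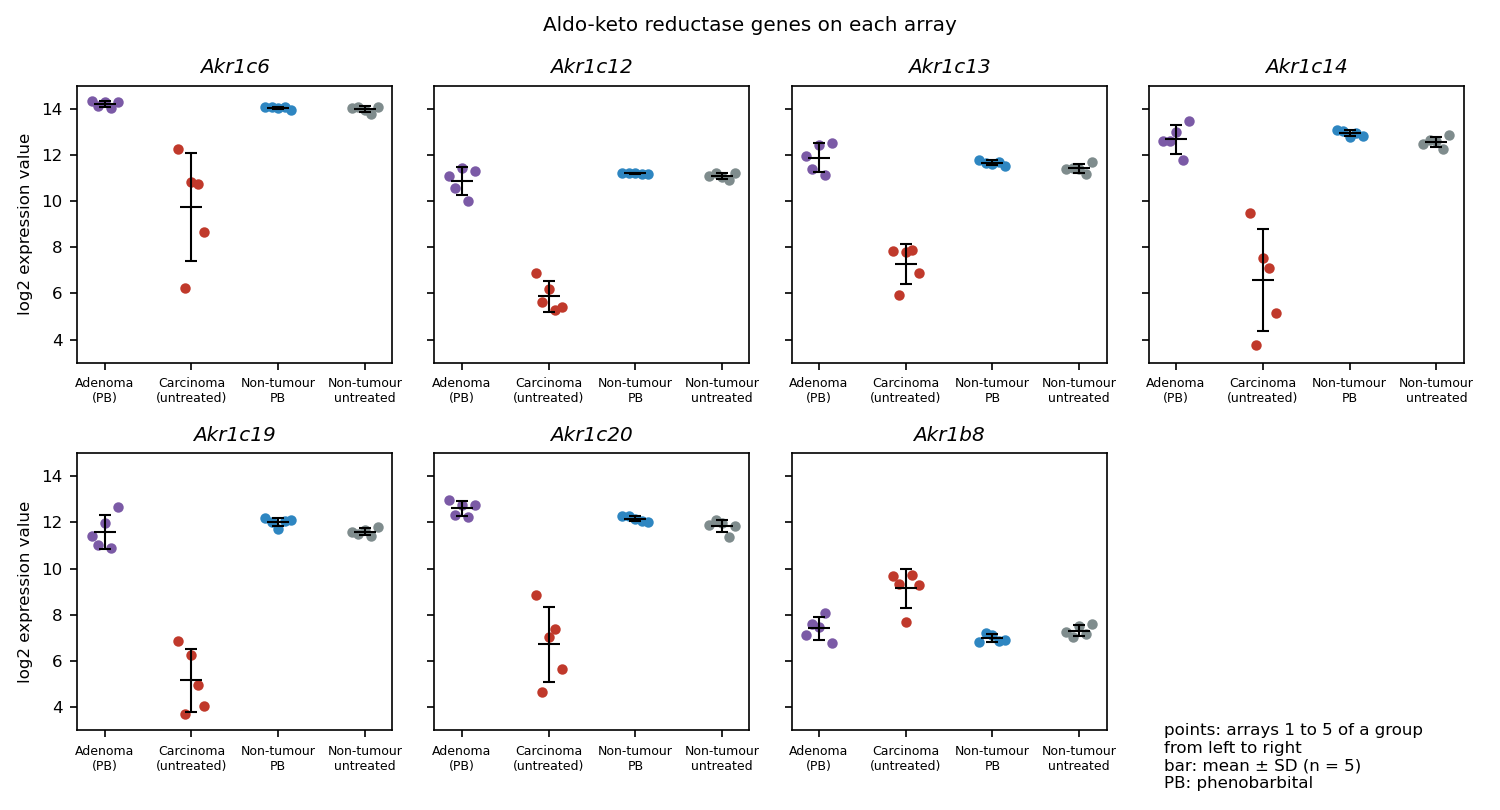
Log2 expression value (y axis) of the 7 measured aldo-keto reductase genes in adenomas, carcinomas, phenobarbital-treated and untreated non-tumour liver (x axis); points are arrays 1 to 5 and bars the mean ± SD (n = 5). The carcinoma points lie below all other groups in the 6 Akr1c genes and span 3.77 to 9.48 for Akr1c14, while for Akr1b8 they run from 7.68 to 9.72 with 4 of 5 above every other array.

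Carcinoma arrays differed from each other in a like way across the 1C genes. Array 2 was the lowest of the 5 carcinomas in 5 of the 6 genes and array 1 the highest in 5 of the 6. The mean of the 6 genes was 8.70, 4.98, 7.61, 7.22 and 5.96 on carcinoma arrays 1 to 5, and the mean of the 9 hepatocyte markers on the same arrays was 9.93, 6.61, 10.41, 10.84 and 8.54. Array 2 was lowest and array 5 next lowest in both, while the order of the other 3 arrays differed.

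Markers of other cells were compared between carcinomas and untreated liver too, where 31.4% of all genes passed upward and 37.6% downward. The counts of macrophage and cholangiocyte markers given below lay near or under those shares. Of 8 stellate cell and fibroblast markers 6 rose and 1 fell, with array sums of 17070 to 35491 in carcinomas, against 5300 to 9511 in untreated liver, on the linear scale. Of 8 endothelial markers 7 fell (sums of 445 to 1027 in carcinomas, against 3495 to 4383 in untreated liver). Macrophage markers rose in 2 of 8 and fell in 3, with sums of 3734 to 9374 in carcinomas, against 3416 to 6912 in untreated liver. Of 6 measured cholangiocyte markers 2 rose and 1 fell (632 to 2824 in carcinomas, against 214 to 596 in untreated liver). Of 8 lymphocyte markers 1 rose and 6 fell (387 to 840 in carcinomas, against 1326 to 1820 in untreated liver). Linear sums weigh bright genes most. The mean log2 level of the lymphocyte marker Ighm was 7.92 in carcinomas and 10.20 in untreated liver. That of the cholangiocyte marker Krt7 was 9.88 in carcinomas and 4.65 in untreated liver. The summed level of the 9 hepatocyte markers was 1626 to 41375 in carcinomas, against 156052 to 171159 in untreated liver. In tissue samples, fewer hepatocytes and less of a transcript per hepatocyte cannot be told apart, and the part of these markers in the falls and in the rise was not tested.

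Between adenomas and PB_NT livers the mean levels of these genes differed by less than 0.5 on the log2 scale, and none of the 7 passed the test (0 of 7, where 24.6% of all genes passed in this comparison and 35.6% had an unadjusted p under 0.05). The differences ran from -0.43 for Akr1c19 to 0.45 for Akr1c20, and the median of the 6 Akr1c genes was -0.04 against -0.03 over all genes. In each of the 7 genes the arrays of the groups overlapped; over all genes, adenomas lay wholly above in 10.3% and wholly below in 8.99%.

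Akr1c19 read 11.41, 11.03, 11.96, 10.90 and 12.68 in adenomas, against 12.19, 12.00, 11.74, 12.07 and 12.11 in PB_NT livers. Adenomas lay on both sides of the PB_NT range, and the 95% interval of the difference ran from -1.38 to 0.53. Akr1c14 read 12.62, 12.60, 13.01, 11.78 and 13.49 in adenomas, against 13.08, 13.05, 12.80, 12.98 and 12.81 in PB_NT livers (difference -0.24, interval -1.64 to 1.16). Akr1c12 read 11.08, 10.57, 11.42, 9.99 and 11.30 in adenomas, against 11.24, 11.23, 11.24, 11.19 and 11.19 in PB_NT livers (difference -0.34, interval -0.90 to 0.21). For these genes the adenomas scattered around or below livers that were almost alike, with an SD of 0.59 in adenomas and 0.03 in PB_NT livers for Akr1c12 (n = 5 each).

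Akr1c13 read 11.97, 11.40, 12.44, 11.13 and 12.53 in adenomas, against 11.80, 11.65, 11.63, 11.72 and 11.52 in PB_NT livers (difference 0.23, interval -0.43 to 0.89). Akr1c6 read 14.35, 14.13, 14.30, 14.02 and 14.33 in adenomas, against 14.09, 14.09, 14.06, 14.07 and 13.98 in PB_NT livers, a difference of 0.17 (interval -1.25 to 1.59). Akr1c20 read 12.99, 12.33, 12.75, 12.23 and 12.77 in adenomas, against 12.26, 12.29, 12.17, 12.08 and 12.03 in PB_NT livers (difference 0.45, interval -0.57 to 1.47). In Akr1c20 and in Akr1c6, 4 of 5 adenomas lay above every PB_NT liver. The interval of Akr1c6 draws on its SD of 2.34 in carcinomas, against 0.14 in adenomas and 0.05 in PB_NT livers. When only these 10 arrays were fitted, Akr1c20 passed (adjusted p = 0.042) and Akr1c6 did not (adjusted p = 0.20). The dimmer probe set of Akr1c20 gave -0.04 (adjusted p = 0.94) in the fit over all probe sets. Akr1b8 read 7.12, 7.60, 7.45, 8.09 and 6.77 in adenomas, against 6.82, 7.19, 7.11, 6.87 and 6.89 in PB_NT livers (difference 0.43, interval -0.20 to 1.05).

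The fit shares 1 spread over all 4 groups. With only the adenomas and PB_NT livers fitted, the adjusted p of the genes other than Akr1c20 lay between 0.16 for Akr1b8 and 0.54 for Akr1c13.

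Among adenomas, array 4 was the lowest in all 6 of the 1C genes and the highest in Akr1b8. The mean of the 6 genes was 12.40, 12.01, 12.65, 11.68 and 12.85 on adenoma arrays 1 to 5. The mean log2 level of the hepatocyte markers on these arrays was 12.43, 12.60, 12.39, 13.27 and 11.84, highest on adenoma 4 and lowest on adenoma 5. Most of that spread came from Cps1 (SD 2.25), Pck1 (SD 1.76) and Tat (SD 1.09), while Alb had an SD of 0.02 (n = 5). On the linear scale the summed marker level was highest on adenoma 1 (120214, against 118216 on adenoma 4) and lowest on adenoma 5 (101969), so the order depended on the scale. Adenoma 4 also had the highest mean of the stellate cell and fibroblast markers (9.94, against 8.03 to 9.28 on the other 4) and of the macrophage markers (9.66, against 8.13 to 9.39). The means of the endothelial (8.23, against 7.98 to 8.21), lymphocyte (6.44, against 5.78 to 6.43) and cholangiocyte markers (5.77, against 4.88 to 5.75) were highest on adenoma 4 too, by smaller margins. The part of these markers in the differences among adenomas was not tested.

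**Figure D2:**
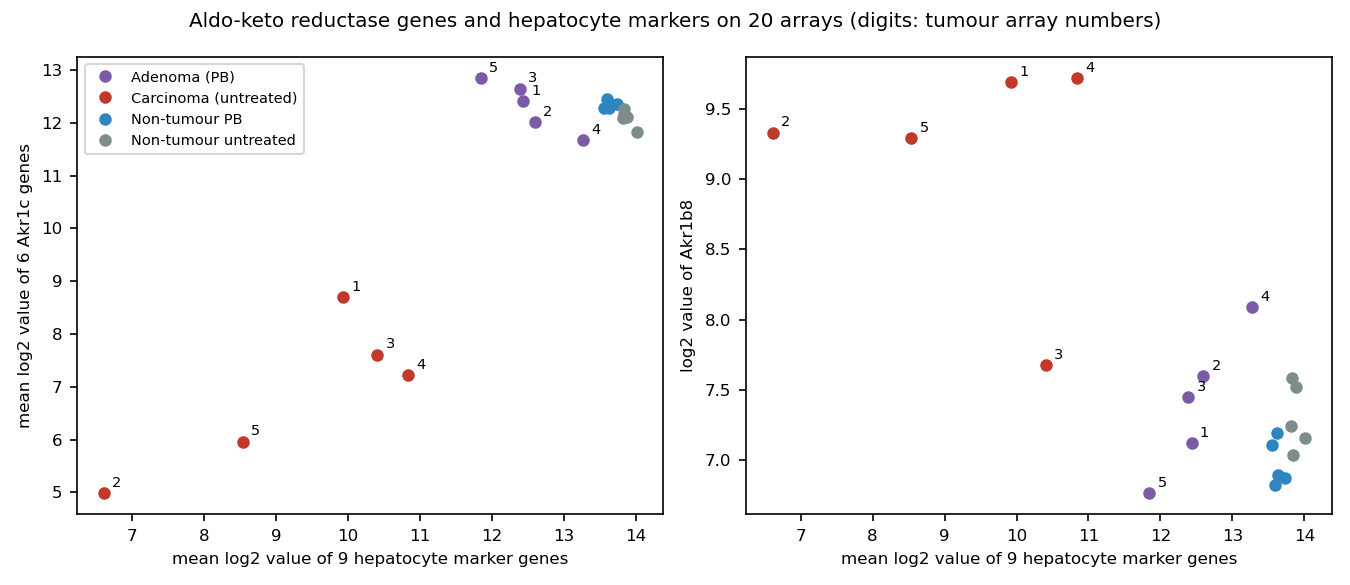
Mean log2 value of 9 hepatocyte markers (x axis) on each of 20 arrays against the mean log2 value of the 6 Akr1c genes (left, y axis) and against Akr1b8 (right, y axis); colours are the groups and digits the tumour array numbers. Carcinoma 2 is lowest on both axes at left (6.61 and 4.98), and among adenomas array 5 joins the lowest marker mean (11.84) to the highest Akr1c mean (12.85).

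Set directly against each other, adenomas were higher than carcinomas in all 6 of the 1C genes and lower in Akr1b8, where 33.6% of all genes passed upward and 28.5% downward. The 1C differences ran from 4.48 for Akr1c6 (SE 0.68, adjusted p = 1.03e-05), a 22.3-fold higher level, to 6.45 for Akr1c19 (SE 0.46, adjusted p = 2.26e-10), an 87.2-fold higher level on the deposited scale that rests on those same low carcinoma values, with a median of 5.45 against 0.10 over all genes. Akr1b8 was lower in adenomas, with a log2 difference of -1.74 (SE 0.30, adjusted p = 4.6e-05). Adenomas and carcinomas did not overlap in the 1C genes, which held in this direction for 21.8% of all genes. They did overlap in Akr1b8 (19.9% of genes lay wholly lower in adenomas), through carcinoma 3 at 7.68 and adenoma 4 at 8.09. Without carcinoma array 2 the Akr1c6 difference was 3.60 and that of Akr1c14 5.39, and without carcinoma array 1 they were 5.10 and 6.82. With array quality weights these genes read 5.12 and 6.77, and with the mean of its probe sets Akr1c20 read 5.01 in place of 5.90. With only the tumour groups fitted, the adjusted p was 0.0019 for Akr1c6 and 8.31e-06 for Akr1c19.

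The tumour effect itself also differed between the tumour types: the adenoma change against PB_NT livers minus the carcinoma change against untreated livers passed in all 7 genes (background 23.3% in each direction). It was positive for the 1C genes, from 4.39 for Akr1c13 (SE 0.45, adjusted p = 1.12e-07) to 6.02 for Akr1c19 (SE 0.64, adjusted p = 2.12e-07), and negative for Akr1b8 (-1.41, SE 0.42, adjusted p = 0.0099). This test uses the same arrays as the separate comparisons.

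**Figure D3:**
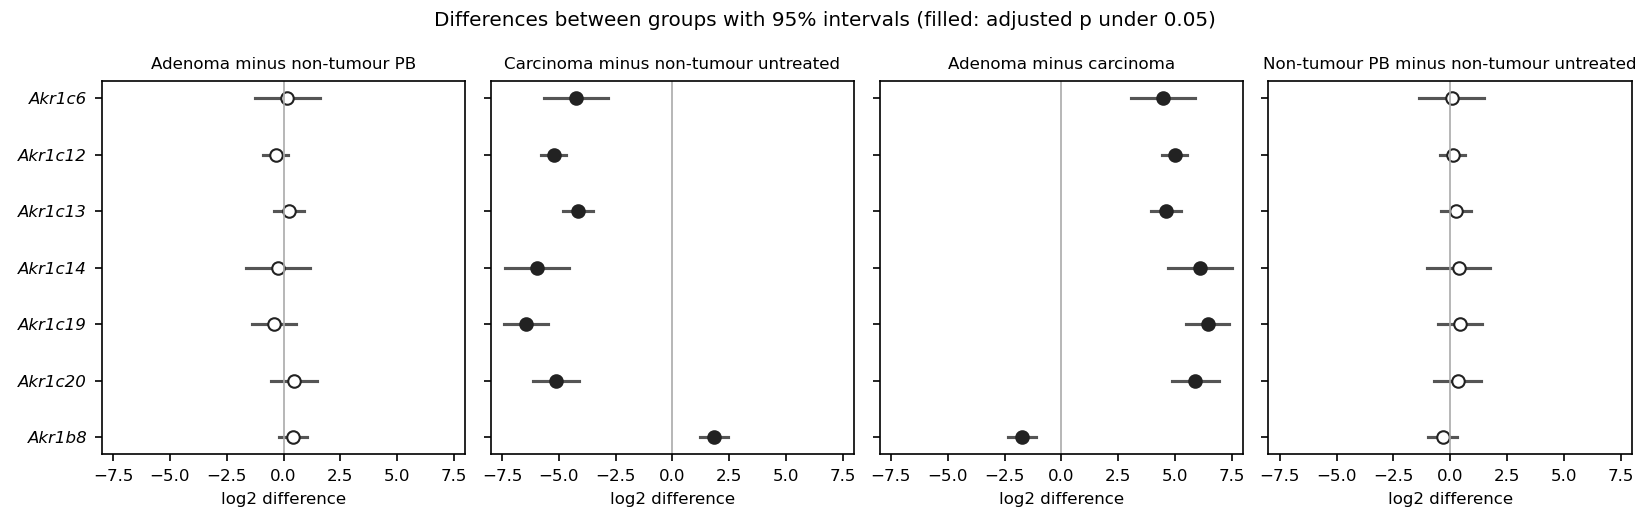
Log2 differences (x axis, with 95% intervals) of the 7 measured genes (y axis) in 4 comparisons, filled where the adjusted p was under 0.05. Carcinomas differ from untreated liver by -6.45 to -4.16 in the Akr1c genes and by 1.83 in Akr1b8, while all intervals include 0 for adenomas against PB_NT livers and for PB_NT against untreated livers.

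Phenobarbital in non-tumour liver moved none of the 7 genes past the test (0 of 7, where 0.214% of all genes passed and 5.90% had an unadjusted p under 0.05). All 6 of the 1C genes read higher on average in PB_NT livers than in untreated livers, by 0.06 for Akr1c6 to 0.43 for Akr1c19, with a median of 0.28 against 0.00 over all genes. Akr1c19 averaged 12.02 ± 0.17 in PB_NT livers and 11.60 ± 0.15 in untreated livers (SD, n = 5 each). Its highest untreated array, at 11.82, lay above its lowest PB_NT array, at 11.74, and the 95% interval ran from -0.53 to 1.38. Fitted on these 10 arrays alone, without the spread of the tumours, Akr1c19 had an adjusted p of 0.065 and Akr1c14 (12.94 ± 0.13 in PB_NT livers and 12.57 ± 0.22 in untreated livers) of 0.14. The other 5 genes had adjusted p between 0.24 and 0.77 in that fit. Akr1b8 averaged 6.98 ± 0.16 in PB_NT livers and 7.31 ± 0.23 in untreated livers, a difference of -0.33 (interval -0.96 to 0.30). The arrays of PB_NT and untreated livers overlapped in all 7 genes; over all genes, PB_NT livers lay wholly above in 2.39% and wholly below in 2.24%. This comparison shares the untreated arrays with that of carcinomas and the PB_NT arrays with that of adenomas.

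The other members of the family were taken as a list of 9, of which 8 were measured. Of these 8, 5 fell and 1 rose in carcinomas against untreated liver, with a median of -0.78, where 37.6% of all genes fell and 31.4% rose. Akr1d1, the 5-beta-reductase of bile acid synthesis, averaged 4.61 ± 0.94 in carcinomas and 11.37 ± 0.28 in untreated liver (SD, n = 5 each). It fell by 6.77 (SE 0.32, adjusted p = 4.32e-13). Its carcinoma values, 3.16 to 5.48, lay under every carcinoma array median (5.61 to 5.63), so this fold is uncertain and may be too small. Akr7a5, an aflatoxin aldehyde reductase, fell by 2.72 (2.12 with the mean of its probe sets) and Akr1e1, a 1,5-anhydrofructose reductase, fell by 1.03. Akr1b10, the neighbour of Akr1b8 on chromosome 6, rose by 0.93 (SE 0.20, adjusted p = 0.00035), from a mean of 6.10 to 7.03. Its groups overlapped, with the lowest carcinoma at 6.20 and the highest untreated array at 6.51.

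In adenomas against PB_NT livers, 1 of these 8 rose and 1 fell, where 13.4% of all genes rose and 11.2% fell. Akr1c18, the 20-alpha-hydroxysteroid dehydrogenase that inactivates progesterone, averaged 7.48 ± 1.29 in adenomas and 6.23 ± 0.18 in PB_NT livers, a difference of 1.25 (SE 0.39, adjusted p = 0.022). That call ended without adenoma array 1, 3 or 4 (0.89, 1.12 and 1.06, adjusted p = 0.062, 0.059 and 0.062) and with only these groups fitted (adjusted p = 0.085). The Akr1e1 difference was -0.37 (adjusted p = 0.026); its call ended without PB_NT array 1 or 3 (adjusted p = 0.059 and 0.062) and with only these groups fitted (0.095). None of the 8 passed between PB_NT and untreated livers. Against carcinomas, adenomas were higher in 7 of the 8 (33.6% of all genes) and lower in Akr1b10 (-0.52, adjusted p = 0.028). Among the 7, Akr1cl passed narrowly (0.31, adjusted p = 0.048) at dim means of 5.44 in adenomas and 5.13 in carcinomas. The groups overlapped in Akr1a1 (0.36) and Akr1e1 (0.67). The Akr1b10 call ended with arrays centred on their medians (-0.44, adjusted p = 0.055), with quantile normalization (-0.31, adjusted p = 0.17), with only these groups fitted (adjusted p = 0.068) and without carcinoma array 1, 4 or 5 or adenoma array 2 (adjusted p = 0.054 to 0.092).

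**Figure D4:**
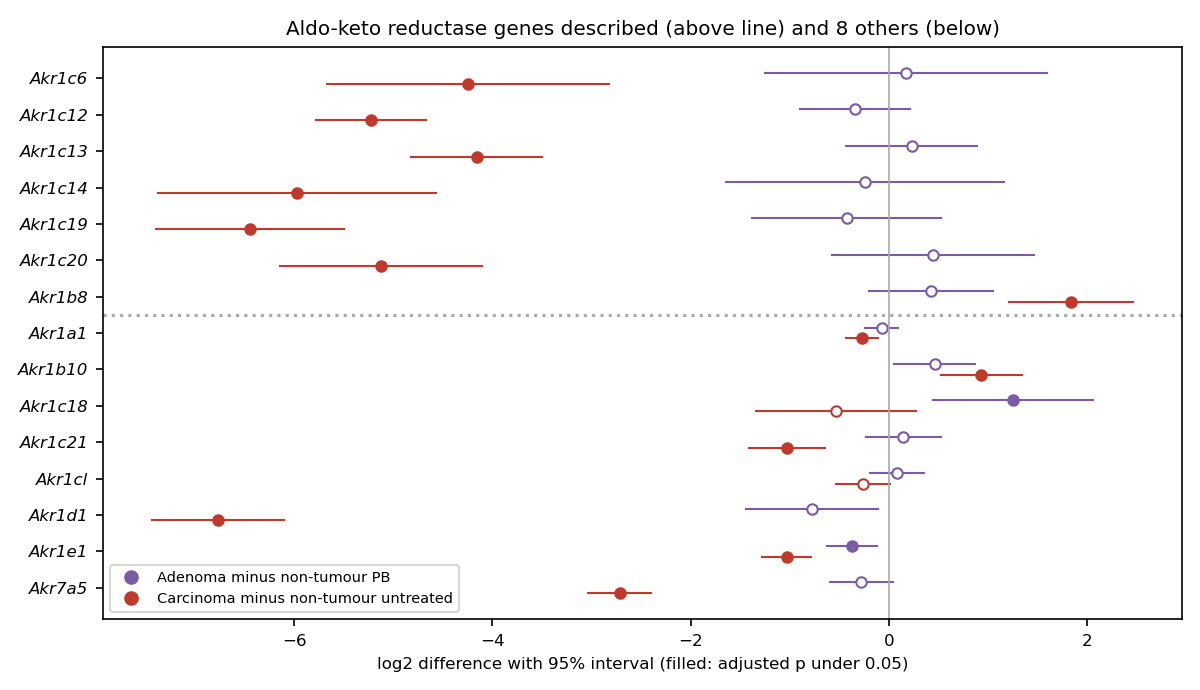
Log2 differences with 95% intervals (x axis) of adenomas against phenobarbital-treated liver and of carcinomas against untreated liver, for the 7 genes described here (above the dotted line) and 8 other measured aldo-keto reductases (below it); filled points have an adjusted p under 0.05. In carcinomas Akr1d1 lies at -6.77 beside the Akr1c genes, and Akr1b8 (1.83) and Akr1b10 (0.93) lie above 0.

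Other dehydrogenases and reductases, listed by name, were compared in the same way, and whether they share substrates with the 1C genes was not tested. Of 14 measured genes listed as steroid dehydrogenases and reductases 13 fell and 1 rose in carcinomas against untreated liver. Over all genes 37.6% fell and 31.4% rose. The median was -4.22 against -0.12 over all genes, and the deepest falls were in Hsd17b13 (-7.19, and -3.87 with the mean of its probe sets), Hsd3b5 (-6.66, and -7.48 without untreated arrays 3 and 4) and Hsd17b2 (-5.85). The one rise was Srd5a3, by 0.57, which did not hold with the mean of its probe sets (0.14, adjusted p = 0.19). In adenomas against PB_NT livers 9 of the 14 fell and 1 rose (median -0.92), where 11.2% of all genes fell and 13.4% rose. Hsd17b13 differed by -2.83 there and Hsd17b6 by -2.77 (-1.59 and -1.46 with the mean of probe sets), and Hsd3b5 by -2.84 (adjusted p = 0.024). The Hsd3b5 call ended without adenoma array 1 or 4 or PB_NT array 2, 4 or 5 (adjusted p = 0.050 to 0.073, values -2.66 to -2.35), and its value was -3.72 without PB_NT array 3. Srd5a3 rose by 0.47.

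Of 18 other carbonyl, aldehyde and alcohol enzymes 15 fell in carcinomas and none rose (median -1.75), against 37.6% of all genes that fell and 31.4% that rose. The deepest falls were in the aldehyde dehydrogenase gene Aldh1a7 (-6.28, and -5.67 without carcinoma array 2), the alcohol dehydrogenase gene Adh4 (-6.19) and the aldehyde oxidase gene Aox3 (-6.14, and -6.76 with array quality weights). In adenomas 4 of the 18 fell (11.2% of all genes) and the carbonyl reductase gene Cbr1 rose by 0.93; the largest of these falls were in Aldh1b1 (-3.04), Dcxr (-1.56) and Adh4 (-1.20). In PB_NT livers 1 of the 18 rose over untreated livers (0.192% of all genes), the carbonyl reductase gene Cbr3, by 3.68 (SE 0.65, adjusted p = 0.012). That call ended without PB_NT array 3 (3.54, adjusted p = 0.053).

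The genes with the pattern most like each member over the 20 arrays were found by the root mean square of the differences between values, each gene minus its own mean. For Akr1c6 they were Adh1, an alcohol dehydrogenase gene (0.22), and Rbp4 (0.28). For Akr1c14 they were Ugt2b5 (0.27) and Slco1b2 (0.30), and for Akr1c19 Ugt2b35 and Ces1g (0.45 each), while Akr1c14 and Akr1c19 differed from each other by 0.52. Akr1c20 was nearest to Lect2 (0.30) and Cyp2d10 (0.32), Akr1c13 to Igsf5 (0.27) and Cldn3 (0.40), and Akr1c12 to Nr5a2 (0.36) and Mbl2 (0.36). Akr1c12 and Akr1c13 differed from each other by 0.58, so other genes lay nearer to each in pattern than the other of the pair did. Akr1b8 was nearest to Plpp1 (0.28) and Rai14 (0.31). These arrays fall into groups, so the measure mostly reflects the gap between carcinomas and the rest.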

How the data were processed

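Liver RNA went onto Affymetrix arrays after 3'IVT Express labelling (per the labels). The deposited values are log2 levels of probe sets from RMA, per the submitters' processing notes (version not given in the sources used here); RMA corrects background, aligns arrays and understates folds of dim genes. Each gene was its brightest single-symbol probe set, avoiding those ending in _x_at. Limma 3.58.1 in R 4.3.3 (lmFit, eBayes) was fitted once over 4 groups of 5 and 18193 genes, with residual df 16, prior df 3.22 and p-values adjusted per comparison by Benjamini and Hochberg (threshold 0.05). Precision is limited by the number of arrays. No pair of arrays within a group had identical values throughout, which cannot exclude repeat arrays of the same sample. The script was tested on simulated data in which a gene had the same spread in every group, which leaves out the larger spread of carcinomas. Members and lists were chosen with earlier results of these data known. Members are all named; examples from lists are up to 3 rising and 3 falling called genes, and 2 genes of most similar pattern per member. Alternatives were a dim filter (11630 genes), averaged probe sets, trend and robust eBayes, median centring, quantile normalization, array weights, the replicate block, fitting only the compared groups, and leaving out arrays. Promoters came from RefSeq and were aligned with Biopython 1.88; tables used Python 3.11.15.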

Additional observations from a re-analysis of the deposited data

Results flagged for a closer look

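The change in adenomas against PB_NT livers differed from the change in carcinomas against untreated livers in all 7 measured genes, by the test of that difference: 4.42 for Akr1c6 (adjusted p = 8e-04), 4.88 for Akr1c12, 4.39 for Akr1c13, 5.73 for Akr1c14, 6.02 for Akr1c19, 5.57 for Akr1c20 and -1.41 for Akr1b8 (adjusted p = 0.0099). Diet and tumour stage cannot be told apart in it. Without carcinoma array 2 the value was 3.54 for Akr1c6 and 5.02 for Akr1c14, and without carcinoma array 1 it was 5.04 and 6.45. With array quality weights these genes read 5.07 and 6.42, and Akr1c20 read 4.65 with the mean of its probe sets.

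A sample stood far from the others of its group in 2 of 32 groups of probe set and tissue, where chance gives about 5%. Akr1b8 on carcinoma array 3 read 7.68, with the other 4 carcinomas at 9.29 to 9.72. Akr1c6 on PB_NT array 5 read 13.98, with the other 4 livers at 14.06 to 14.09.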

How the results depend on the processing

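Of 728 values of single genes of the set recomputed under an alternative, 726 kept their direction and their side of the threshold. The exceptions were Akr1c20 in adenomas against PB_NT livers, which passed with only these groups fitted (0.45), so that 1 of the 7 genes passed there in place of 0, and Akr1c6 in PB_NT against untreated livers, which read -0.0142 without untreated arrays 3 and 4 and had no call in either case; fewer arrays entered that fit. With single arrays left out, 7 of 7 passed in carcinomas against untreated liver, in adenomas against carcinomas and in the difference of tumour effects, and 0 of 7 in the other comparisons. Over all genes, the number passing between PB_NT and untreated livers was 39; it was 265 with only these groups fitted and 205 with array quality weights, and 23 to 38 with single arrays left out, 23 without PB_NT array 3 and 25 without PB_NT array 2. Replicate numbers are shared between groups, and same-numbered samples did not deviate together over all genes (correlations of -0.112 to 0.066). Samples of 1 mouse need not deviate together, so this cannot tell whether the numbers pair samples. With the replicate block the counts were 39 between PB_NT and untreated livers, 12415 for carcinomas and 4312 for adenomas. They were 11180 between tumours and 8309 for the difference. In the same order, 0, 7, 0, 7 and 7 of the 7 genes passed. Centring moved the median of all genes in carcinomas against untreated liver to -0.18, against -0.12 as deposited. No detection calls were used here, so whether the lowest carcinoma values lie above background is unknown.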

Other observations

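A further probe set is annotated to Akr1c12 and Akr1c13 together and names neither. It read 8.28, 5.79, 7.84, 7.75 and 6.69 in carcinomas, against 12.29, 12.39, 12.29, 12.09 and 12.42 in untreated liver, a difference of -5.03 (SE 0.33, adjusted p = 5.77e-11 over all 45037 probe sets). In adenomas it read 12.58, 11.99, 12.95, 11.86 and 12.97, against 12.51, 12.46, 12.39, 12.49 and 12.42 in PB_NT livers, a difference of 0.02 (adjusted p = 0.98). Among adenomas its lowest array was number 4, as in each of the 6 single-symbol Akr1c genes.

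Array 4 was also the lowest of the untreated livers in all 6 of the 1C genes, where the mean of the 6 was 11.82 on array 4 and 12.09 to 12.25 on the other 4. No label says that replicate numbers pair the samples, so the meaning of the shared number is not known. The mean of the hepatocyte markers was highest on that untreated array (14.01, against 13.82 to 13.88), and the means of the cholangiocyte markers (5.99, against 4.95 to 5.23) and macrophage markers (9.32, against 8.17 to 9.06) were highest there as well. The part of these markers in the low values was not tested.

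Adenomas differed from each other in Akr1c18 more than in any of the 6 measured 1C genes of the set, with an SD of 1.29 against 0.14 to 0.73. It ran from 5.95 to 8.93 in adenomas and from 6.03 to 6.46 in PB_NT livers. This gene was singled out after its values were seen.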
